A study of Mus musculus with 23 samples.

Results

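Plasma cells of the mouse spleen were described in 3 libraries of single-cell RNA sequencing, 1 each from wild-type (WT), Y665H and Y665F mice. Plasma cells are the antibody-secreting end stage of the B cell lineage. They were picked by 2 transcripts that such cells hold in large amounts. Jchain encodes the chain that joins IgA and IgM units into polymers, and Xbp1 encodes a transcription factor of the secretory program. A droplet barcode was a plasma cell here when it had at least 500 detected genes, at most 10% of its unique molecular identifiers (UMIs, the count of captured transcripts) in mitochondrial genes, at least 10 Jchain UMIs, at least 5 Xbp1 UMIs and at most 1 UMI over Cd3d, Cd3e and Cd3g, which mark T cells. The rule found 96 plasma cells among the 19566 spleen barcodes that passed the limits on genes and mitochondrial UMIs. The spleen libraries held 20500 barcodes in all, of the 139967 in the 16 expression libraries of the series.

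STAT5B carries cytokine signals from receptors to genes, and the changed tyrosine lies in the SH2 domain through which it is recruited and dimerizes. The study put the leukemia-associated changes Y665F and Y665H into the mouse germline and compared blood cell tissues with WT. The 3 groups used here were WT, STAT5B-Y665H and STAT5B-Y665F, all C57BL/6 mice by the labels (C57BL/6N by the methods) at 2 months of age with no treatment named. The labels give no zygosity for the spleen mice. By the results text of the study the cells were CD45+ spleen cells. A figure legend of the study gives 1 combined sample of several mice per group, although that legend names lymph nodes as the tissue. With 1 library per genotype there was no replicate of any genotype, so no test of a difference between genotypes was possible. Intervals printed below are 95% exact intervals (binomial for shares of cells, conditional Poisson for ratios of counts), and they cover counting error only.

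When a B cell becomes a plasma cell, the repressor encoded by Prdm1 and the factor encoded by Irf4 turn off the B cell program and MHC class II. The cell then gives a large share of its transcripts to 1 heavy and 1 light immunoglobulin chain. Its endoplasmic reticulum (ER) grows under the control of XBP1 and ATF6, the transcription factors of the unfolded protein response. The spleen holds short-lived plasma cells that form there in immune responses as well as long-lived ones, and IgA plasma cells are best known from the gut wall.

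The libraries held 40480676 (WT), 47206322 (Y665H) and 36889328 (Y665F) UMIs, with medians of 5392, 5046 and 6487 UMIs per barcode. Between 7 and 18 barcodes were shared by a pair of libraries, and none of them was a plasma cell. Jchain and Igha UMIs were also found in T cells. Of the T cell gate (at least 3 UMIs over the Cd3 genes, no Cd79a), 9.72%, 13.2% and 3.99% of barcodes had a Jchain UMI and 34.3%, 36.0% and 12.1% an Igha UMI, so single UMIs of these genes were not read as expression.

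Plasma cells numbered 30 in WT, 48 in Y665H and 18 in Y665F. They made up 0.445% (0.300 to 0.635%) of the passing barcodes in WT. The share was 0.609% (0.450 to 0.807%) in Y665H and 0.364% (0.216 to 0.574%) in Y665F. Per 100 barcodes of the B cell gate (at least 2 Cd79a and 1 Ms4a1 UMIs, under 10 Jchain UMIs, at most 1 Cd3 UMI) there were 1.90, 2.26 and 2.41 plasma cells, since that gate held 1575, 2120 and 747 barcodes. The share intervals of all 3 libraries overlapped, and shares were taken from CD45+ cells of pooled mice, so they are a description. With the Cd3 limit set at 0 in place of 1, the shares were 0.356%, 0.343% and 0.182%, because 6, 21 and 9 of the plasma cells held 1 Cd3 UMI.

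The limit on Jchain separated the barcodes cleanly. Among barcodes that met every other limit, the lowest Jchain count inside was 240 in WT, 126 in Y665H and 278 in Y665F, and the highest outside was 7, 2 and 0. The median plasma cell had 653, 514.5 and 559 Jchain UMIs. Xbp1 gave no such gap, with lowest counts of 5, 5 and 11 inside, while 3, 2 and 3 barcodes with enough Jchain had under 5. The Cd3 limit left out 8, 11 and 1 further barcodes with 2 or more Cd3 UMIs. Those barcodes were not plasma cells by the rule, although most of them had as many Jchain UMIs as the plasma cells, between 52 and 678 in WT and between 284 and 1291 in Y665H.

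Plasma cells were deeper than the median barcode of their libraries, with medians of 18940.5, 18030.5 and 19954.5 UMIs. The ranges over single cells were 9113 to 36161, 4239 to 36191 and 14027 to 57925 UMIs, in the same order of libraries. Their median number of detected genes was 2782, 2951 and 3008.5. Immunoglobulin genes took 41.9%, 36.7% and 31.7% of all plasma cell UMIs, with single cells between 7.39% and 67.1%. Their share in the median cell was 41.2%, 35.5% and 36.4%. The lowest value came from the deepest Y665F cell, at 57925 UMIs, which weighs on the Y665F share. In the B cell gate the share was 1.89%, 1.75% and 1.66%, and in the T cell gate 0.0576%, 0.0734% and 0.0332%. Because that share differed between libraries, every other gene is given below as its level, the UMIs per 1000000 non-immunoglobulin UMIs summed over the plasma cells of a library. The sums held 344335, 564745 and 279484 such UMIs.

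The antibody class of a plasma cell was read from its most abundant heavy chain constant gene, which took a median of 99.9%, 99.5% and 99.9% of the heavy chain constant UMIs of a cell. Most plasma cells made IgA, the class of mucosal surfaces, in every genotype. IgA cells were 23 of 30 (76.7%, 57.7 to 90.1%) in WT, 33 of 48 (68.8%, 53.7 to 81.3%) in Y665H and 14 of 18 (77.8%, 52.4 to 93.6%) in Y665F, or 70 of 96 (72.9%, 62.9 to 81.5%) of all. IgM cells, which have not switched class, were 4 of 30 (13.3%, 3.76 to 30.7%), 6 of 48 (12.5%, 4.73 to 25.2%) and 2 of 18 (11.1%, 1.38 to 34.7%). The intervals of the genotypes overlapped for both classes.

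IgG cells, the class of most systemic responses, were rare, at 3 of 30 (10.0%, 2.11 to 26.5%) in WT, 9 of 48 (18.8%, 8.95 to 32.6%) in Y665H and 2 of 18 (11.1%, 1.38 to 34.7%) in Y665F. They used IgG2b in 2, 3 and 0 cells, IgG2c in 1, 3 and 1 cells, and IgG1 in 0, 3 and 1 cells. The IgG2b and IgG2c genes are close copies, and how the counting split reads between them was not tested. No cell was led by IgG3, IgD or IgE, and by the limit of 3 counts 0 of 96 cells allows a share of up to 3.125% (exact upper bound 3.77%). In all, 3 cells had under 50 heavy chain constant UMIs (22 in WT, 22 and 33 in Y665H), so their class rests on few counts.

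**Figure D1:**
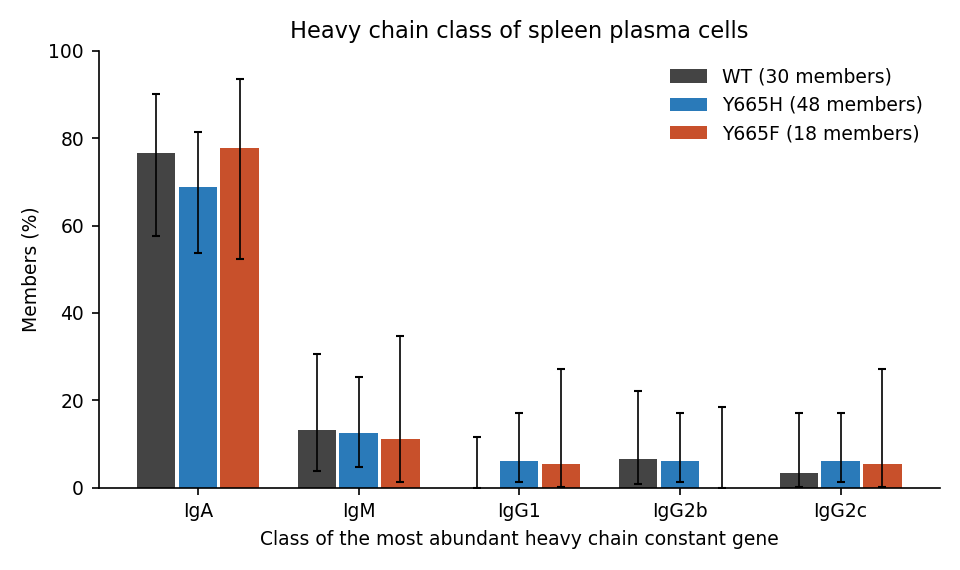
Percent of plasma cells (vertical axis) by the class of their most abundant heavy chain constant gene (horizontal axis), with 1 bar per genotype and the 95% exact binomial interval as a line, which covers counting error only. IgA leads in all 3 libraries, at 76.7%, 68.8% and 77.8%, and the intervals of the genotypes overlap in every class.

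Jchain was lowest in IgG cells. The median cell held 368 Jchain UMIs per 10000 UMIs among the 70 IgA cells, 463 among the 12 IgM cells and 196 among the 14 IgG cells, whose antibodies are not joined by the J chain. Since Jchain chose the cells, this is a description with no test. By library the medians of IgG cells were 353, 196 and 89.6 per 10000 UMIs (3, 9 and 2 cells), against 389, 323 and 373 in IgA cells.

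Nearly all cells used a kappa light chain. A lambda chain led in 2 of 30 WT cells, 1 of 18 Y665F cells and none of the 48 Y665H cells, which by the same limit allows a share of up to 6.25% (exact upper bound 7.40%). The median kappa cell of WT held 6115.5 UMIs of the kappa constant gene Igkc and 70.5 of the lambda genes Iglc1, Iglc2 and Iglc3 together. In the 2 lambda cells of WT Igkc was at 6 and 28 UMIs and Iglc2 at 2487 and 2756.

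Variable segments were covered thinly, with a median of 20, 19.5 and 30.5 heavy variable (Ighv) UMIs per cell against 1797, 1374 and 1384.5 heavy constant UMIs. The leading Ighv segment could be named in 94 cells and gave 48 different segments, with Ighv1-81 in 6 cells and Ighv1-26, Ighv1-53 and Ighv3-6 in 5 cells each. Within a library the WT segments led in at most 2 cells each, among them Ighv1-26, Ighv1-4 and Ighv1-55. The most frequent were Ighv1-81 (3 cells) in Y665H and Ighv1-53 and Ighv1-64 (2 cells each) in Y665F. Kappa segments were led by Igkv5-48 (3 cells) in WT, Igkv14-111 and Igkv8-24 (4 cells each) in Y665H and Igkv3-7 and Igkv4-72 (2 cells each) in Y665F.

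Heavy and light segments together gave 90 pairs in 94 cells. A pair came back within 1 library 3 times, always in IgA cells. These were Ighv1-76 with Igkv5-48 and Ighv3-6 with Igkv4-70 in 2 WT cells each, and Ighv14-4 with Igkv6-20 in 2 Y665H cells. Another 1 recurred across libraries, Ighv1-81 with Igkv10-96 in a WT IgA and a Y665H IgG2b cell. No pair was held by 3 or more cells. Junction sequences were not used here, so shared segments do not show shared ancestry.

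The label of the cells was checked on 18 plasma cell genes that the rule did not use. Their summed level was 16072 in WT, 14865 in Y665H and 15349.7 in Y665F, against 1226, 1201 and 1143 in the B cell gate, a ratio of 13.1, 12.4 and 13.4. Of the genes with at least 30 UMIs over plasma cells and B cell gate of a library together, 17, 15 and 16 (of 18, 17 and 17 compared) stood at least 2-fold above the B cell gate. Over all genes with that many UMIs, 12.1%, 11.0% and 14.4% stood 2-fold above and 29.1%, 29.1% and 29.3% 2-fold below. Because the cells were chosen on their transcripts, these contrasts are descriptions.

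Prdm1, the repressor of the B cell program (ENSMUSG00000038151, chr10, 44437177 to 44528501, minus strand, build GRCm38), had a level of 322 in WT, 297 in Y665H and 272 in Y665F, against 4.89, 2.89 and 1.91 in the B cell gate. It was detected in 29 WT, 45 Y665H and 17 Y665F cells. After each plasma cell was thinned to 9000 UMIs, which left out 2 shallower Y665H cells, 76.7% of WT, 82.6% of Y665H and 72.2% of Y665F cells still held a Prdm1 UMI. In the T cell gate, unthinned and at median depths of 6182.5, 5920 and 7460 UMIs, 4.75%, 4.39% and 7.51% did.

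Irf4, which works with Prdm1, had a level of 508 in WT, 414 in Y665H and 708 in Y665F, against 47.0, 47.0 and 49.3 in the B cell gate. Sdc1, the surface proteoglycan CD138 by which plasma cells are sorted, was at 180.1 in WT, 175 in Y665H and 197 in Y665F, against 8.24, 5.68 and 2.86. Mzb1, an ER cofactor of antibody assembly, was at 4246 in WT, 4999 in Y665H and 5074 in Y665F, against 329, 326 and 317. All 3 were above the B cell gate in every library.

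**Figure D2:**
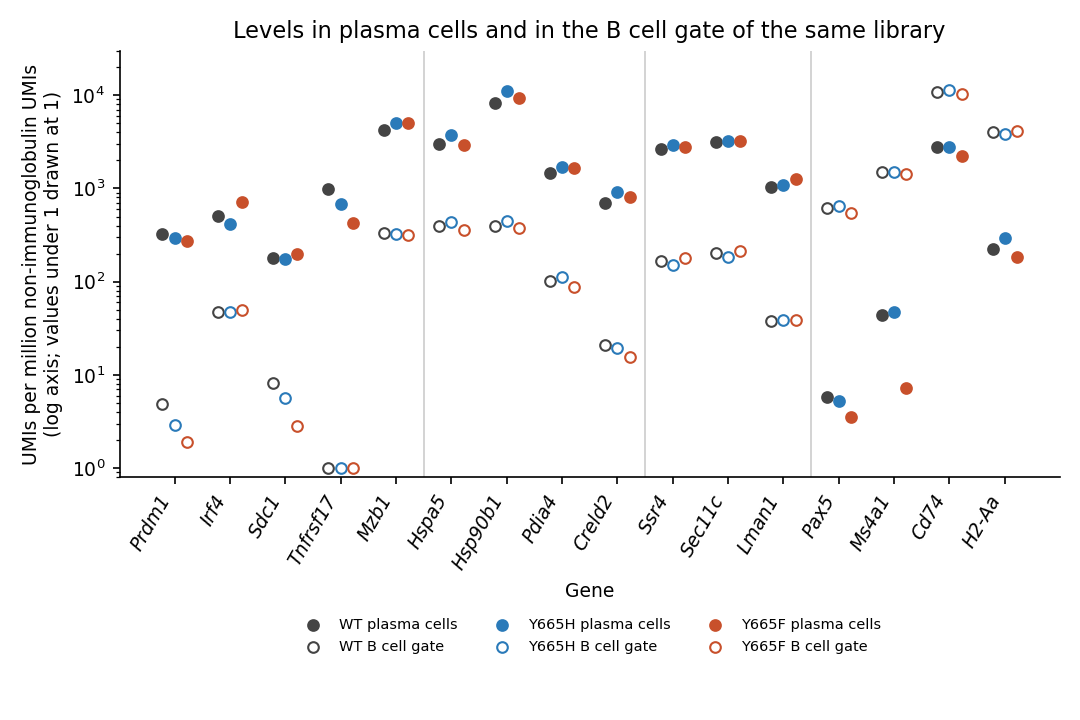
Levels (UMIs per 1000000 non-immunoglobulin UMIs, log axis, values under 1 drawn at 1) of 16 genes in plasma cells (filled) and in the B cell gate (open) of the same library, with colour for genotype. From left to right the blocks hold plasma cell identity, unfolded protein response, secretory pathway, and B cell and MHC class II genes. The first 3 blocks lie above the B cell gate in all 3 libraries and the last block below it.

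Genes of the unfolded protein response stood well above the B cell gate in all 3 genotypes. The 34 genes of this list had a summed level of 26242 in WT, 32126 in Y665H and 29236 in Y665F and stood 8.5, 9.80 and 10.1 times the B cell gate, with 26, 26 and 24 genes (of 31, 31 and 30 compared) at least 2-fold above it. Hspa5, the main ER chaperone BiP, was at 3026 in WT, 3752 in Y665H and 2891 in Y665F, against 399, 432 and 362 in B cells. Hsp90b1, the chaperone GRP94, was at 8184 in WT, 11199.7 in Y665H and 9278 in Y665F, against 394, 445 and 374. Creld2, an ER stress-induced disulfide isomerase, was at 703 in WT, 924 in Y665H and 819 in Y665F, against 21.1, 19.6 and 15.6.

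Genes named here from the arm that halts translation and can lead to cell death did not stand alike against the B cell gate. In every library Ddit3 was near it, Ppp1r15a below it and Atf4 above it. Ddit3, the death-linked factor CHOP, was at 29.0 in WT, 24.8 in Y665H and 28.6 in Y665F on 10, 14 and 8 UMIs, against 27.2, 27.7 and 29.2. Ppp1r15a, which restarts translation, was at 61.0 in WT, 35.4 in Y665H and 53.7 in Y665F, against 84.9, 109 and 65.8 in the B cell gate. Atf4, the factor above both, was at 209 in WT, 165 in Y665H and 218 in Y665F, against 104, 111 and 96.7. In the arm of ER-associated degradation, Edem1, which hands misfolded glycoproteins to degradation, was at 1051 in WT, 880.0 in Y665H and 1145 in Y665F, against 32.1, 32.2 and 32.1, and Sel1l, part of the ER degradation channel, at 494 in WT, 398 in Y665H and 322 in Y665F, against 44.9, 43.2 and 40.4.

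Promoters of these genes are shown because XBP1 and ATF6 act through the ER stress response element (ERSE), CCAAT and CCACG with 9 bases between them. The element was searched on both strands of RefSeq promoter windows of 250 bases before to 50 bases after the start (GRCm38.p6). It lay in the windows of 8 of the 28 response genes that had one (28.6%), namely Hspa5, Calr, Hsp90b1, Canx, Pdia6, Dnajc3, Creld2 and Syvn1. Among all 27025 genes with a window 37 had it (0.137%). Hsp90b1 had it on both strands, without overlap. Of the 14 plasma cell identity genes with a window 1 had it, Derl3, and of the 29 secretory, 12 B cell and 17 cell cycle genes none did. A match is a description of letters and not a binding site, and no match says only that these letters were not in the window. The 250 bases before the start of 3 genes follow, 5′ to 3′ on the gene's strand, with each element in capitals (CCAAT first on the gene's strand, CGTGG first on the other). The Hspa5 stretch is chr2:34771840-34772089 (plus strand), the Hsp90b1 stretch chr10:86705445-86705694 (minus strand) and the Derl3 stretch chr10:75893148-75893397 (plus strand).
Hspa5: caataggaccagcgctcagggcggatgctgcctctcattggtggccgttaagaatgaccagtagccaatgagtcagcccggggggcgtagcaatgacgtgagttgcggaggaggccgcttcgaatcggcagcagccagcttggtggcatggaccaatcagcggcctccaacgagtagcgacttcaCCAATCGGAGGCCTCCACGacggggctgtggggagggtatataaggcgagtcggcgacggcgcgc
Hsp90b1: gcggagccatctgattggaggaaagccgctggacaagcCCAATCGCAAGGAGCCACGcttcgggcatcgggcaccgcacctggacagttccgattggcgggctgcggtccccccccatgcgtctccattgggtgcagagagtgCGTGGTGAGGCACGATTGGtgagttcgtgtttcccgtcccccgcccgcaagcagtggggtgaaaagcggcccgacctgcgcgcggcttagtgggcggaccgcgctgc
Derl3: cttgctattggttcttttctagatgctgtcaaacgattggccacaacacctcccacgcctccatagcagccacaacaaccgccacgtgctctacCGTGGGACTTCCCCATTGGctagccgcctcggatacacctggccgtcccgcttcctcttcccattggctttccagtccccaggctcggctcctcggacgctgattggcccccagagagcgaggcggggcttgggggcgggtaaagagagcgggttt

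The elements began 65 bases before the start in Hspa5, 212 and 107 bases before it in Hsp90b1 and 156 bases before it in Derl3, as counted from the base of the element nearest to 5′. Derl3, a channel component of ER-associated degradation, was at 543 in WT, 606 in Y665H and 419 in Y665F, against 3.97, 2.56 and 3.18 in the B cell gate. The XBP1 element UPRE (TGACGTGG) lay in a window of 0 of the 28 response genes and of 193 of all genes (0.714%). Among the 29 secretory genes with a window 3 had it (Sec24d, Copb2 and Kdelr3), and among the 14 identity genes 2 (Pou2af1 and Txndc5).

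The secretory pathway followed the same pattern. The 38 genes for translocation, signal peptide removal, glycosylation and vesicle transport had a summed level of 24609.8 in WT, 25906 in Y665H and 27833 in Y665F, 6.50, 6.97 and 7.40 times the B cell gate, with 34, 33 and 34 genes of 37 compared 2-fold above it. Ssr4, of the translocon-associated complex, was at 2681 in WT, 2929 in Y665H and 2805 in Y665F, against 168, 150.1 and 180.3. Sec11c, of the signal peptidase, was at 3159.7 in WT, 3235 in Y665H and 3245 in Y665F, against 202, 183 and 214. Lman1, a cargo receptor from the ER to the Golgi, was at 1025 in WT, 1077 in Y665H and 1259 in Y665F, against 38.0, 39.1 and 38.8.

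B cell genes were low in the plasma cells of every genotype. The 18 genes of this list had a summed level of 1260.4 in WT, 1351 in Y665H and 629.7 in Y665F, or 0.119, 0.134 and 0.0660 times the B cell gate, and 17, 18 and 18 of 18 genes were 2-fold below it. Pax5, the master factor of the B cell program, had 2 UMIs in WT, 3 in Y665H and 1 in Y665F in all. Ms4a1 (CD20), which was part of the B cell gate, was at 43.6 in WT, 47.8 in Y665H and 7.16 in Y665F. Cd79b, of the B cell receptor, had the most UMIs of the list, at 609.9 in WT, 728 in Y665H and 401 in Y665F, against 2050.5, 1862 and 1790.3.

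The 10 MHC class II genes had a summed level of 3961 in WT, 4209 in Y665H and 3274 in Y665F, or 0.172, 0.180 and 0.146 times the B cell gate, and all 10 were 2-fold below it in each library. Cd74, the invariant chain, was at 2794 in WT, 2780.0 in Y665H and 2218 in Y665F, against 10951, 11345 and 10386. H2-Aa, the alpha chain of I-A, was at 227 in WT, 297 in Y665H and 182 in Y665F, against 4079, 3882 and 4087. Ciita, which drives these genes, had 2 UMIs in WT, 9 in Y665H and 0 in Y665F. A single WT cell, described below with the Siglech gene, held 39 of the 78 WT UMIs of H2-Aa, and without it the ratio of H2-Aa over WT was 2.46 in place of 1.31 in Y665H and 1.51 in place of 0.806 in Y665F, above WT in both. Without the top cell of each library, this one among them, it was 1.90 and 1.11.

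Genotypes were then compared gene by gene within plasma cells. Of genes outside the immunoglobulin loci with at least 30 UMIs in the 2 libraries together, 2832 could be compared between Y665F and WT and 3748 between Y665H and WT. In Y665F 161 (5.69%) were at least 2-fold higher and 156 (5.51%) at least 2-fold lower than in WT. In Y665H 74 (1.97%) were higher and 68 (1.81%) lower. The comparisons share the WT library, and the Y665F library has fewer plasma cells, so the counts are not set against each other. Scaled to all UMIs, with immunoglobulins included, the split in Y665F was 290 higher and 86 lower. The median log2 ratio over all genes was 0.032 in Y665F and −0.0033 in Y665H. In bulk sums like these, fewer cells that express a gene and less RNA per cell cannot be told apart, so the number of cells with the gene is given beside the main values.

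Genes of the plasma cell program were set beside all genes compared, of which, as above, 5.69% were 2-fold higher and 5.51% lower in Y665F, and 1.97% and 1.81% in Y665H. Of 18 identity genes 0 were past 2-fold higher in either mutant, and 2 were lower in Y665F and 1 in Y665H, with list medians of −0.13 and −0.13 (log2). The lower genes were Tnfrsf17 and Prg2 in Y665F and Prg2 in Y665H, and nothing particular to the list is read from counts this small. Of the response genes with enough UMIs 0 of 30 in Y665F and 0 of 31 in Y665H were past 2-fold, with medians of 0.096 and 0.094. Of 37 secretory genes 1 was higher in both, Kdelr1, a receptor that returns ER proteins from the Golgi, and the medians were 0.30 and 0.13. Its level was 139 in WT, 282 in Y665H and 289.8 in Y665F, with ratios of 2.08 (1.44 to 3.04) in Y665F and 2.02 (1.45 to 2.85) in Y665H. The latter was 1.97 without the WT cell that held the Siglech UMIs.

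Tnfrsf17 encodes BCMA, the receptor by which plasma cells take up the survival signals BAFF and APRIL (ENSMUSG00000022496, chr16, 11313812 to 11320074, plus strand). Its level was 996 in WT, 689 in Y665H and 429 in Y665F, and it was found in 28 WT, 42 Y665H and 16 Y665F cells. The median cell held 9.5 UMIs in WT, 7.5 in Y665H and 6 in Y665F, and the ranges (0 to 35, 0 to 25 and 0 to 20) overlapped. The ratio to WT was 0.431 (0.347 to 0.532) in Y665F and 0.691 (0.597 to 0.802) in Y665H. It was near 0 in the B cell gate (0.611, 0.334 and 0).

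Of 19 survival genes 9 could be compared in Y665F, with 0 higher and 2 lower (Tnfrsf17 and Bcl2). In Y665H 12 could be compared, with 1 higher (Tnfrsf13c) and 0 lower. The medians were −0.40 and 0.10. Among all genes compared 5.69% were higher and 5.51% lower in Y665F, and 1.97% and 1.81% in Y665H. Nothing particular to this list is read from counts this small. Mcl1, the protein that plasma cells depend on to survive, was at 627 in WT, 714 in Y665H and 476 in Y665F. Its Y665F ratio without cycling cells was 0.919 (0.722 to 1.17). Bcl2, its relative, was at 72.6 in WT, 83.2 in Y665H and 35.8 in Y665F on 25, 47 and 10 UMIs, and the Y665F interval of its ratio reached past 1, at 0.493 (0.211 to 1.06). Without cycling cells it was 0.605 (0.248 to 1.34), no longer past 2-fold. Tnfrsf13b (TACI), another APRIL receptor, was at 494 in WT, 317 in Y665H and 343 in Y665F, and Cd28, a costimulatory receptor, at 296 in WT, 230.2 in Y665H and 193 in Y665F. The BAFF receptor gene Tnfrsf13c, a B cell gene, was at 26.1 in WT, 65.5 in Y665H and 32.2 in Y665F, against 350.1, 349 and 259 in the B cell gate.

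Of 23 genes for homing and adhesion, 12 could be compared in Y665F, with 0 higher and 2 lower (Ccr9 and Klf2), and 16 in Y665H, with 0 higher and 1 lower (Ccr9). Over all genes compared 5.51% were lower in Y665F and 1.81% in Y665H, and nothing particular to the list is read from counts this small. The WT cell that held the Siglech UMIs had 14 of the 31 WT UMIs of Ccr9. Without it alone the Ccr9 ratio was 0.672 in Y665H and 0.679 in Y665F, where under 30 UMIs were left, and neither was past 2-fold. Without the top cell of every library, which left out the same WT cell, Ccr9 stayed 2-fold lower, at 0.213 in Y665F (3 UMIs against 17) and 0.374 in Y665H (11 against 17), also on under 30 UMIs. The list medians with all cells were −0.73 in Y665F and 0.13 in Y665H. Klf2, a factor that governs lymphocyte traffic, was at 470.5 in WT, 537 in Y665H and 215 in Y665F and was found in 25 WT, 37 Y665H and 11 Y665F cells. Its median was 3, 3 and 1.5 UMIs per cell, with ranges that overlapped, and the ratio in Y665F was 0.456 (0.333 to 0.617). Itga4, the alpha 4 chain of the gut-homing and VCAM1-binding integrins, was at 816 in WT, 1204 in Y665H and 472 in Y665F, with ratios of 0.579 (0.467 to 0.714) in Y665F and 1.48 (1.28 to 1.70) in Y665H. Its partner Itgb7 was at 290.4 in WT, 299 in Y665H and 165 in Y665F.

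The chemokine receptor genes were found in part of the cells. Ccr10, which guides IgA plasma cells to mucosal tissue, was at 189 in WT, 133 in Y665H and 143 in Y665F and near 0 in the B cell gate (0, 0 and 0.318). After thinning to 9000 UMIs 40.0% of WT, 41.3% of Y665H and 38.9% of Y665F cells held a Ccr10 UMI, against 0.664%, 0.939% and 0.704% of the T cell gate. Ccr9, which guides cells to the small intestine, was at 90.0 in WT, 35.4 in Y665H and 35.8 in Y665F, in 8 WT, 9 Y665H and 2 Y665F cells. Its single cells ranged from 0 to 14, 0 to 9 and 0 to 7 UMIs, and after thinning 23.3% of WT, 10.9% of Y665H and 11.1% of Y665F cells held a Ccr9 UMI, beside 19.9%, 16.7% and 7.90% of the T cell gate, which expresses the gene too. Cxcr4, the receptor for bone marrow homing, had 5 UMIs in WT, 6 in Y665H and 12 in Y665F.

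IgA cells were set beside the other cells of the same library. Of 1692 genes with at least 100 UMIs over all plasma cells, 8 (0.473%) were at least 2-fold higher in the IgA cells of all 3 libraries and 7 (0.414%) at least 2-fold lower. The higher genes were Ccr10, Runx2, Ahnak, Anxa2, Uck2, Isg15, Ptms and Itpr3, and the lower genes were Fcrla, Bcl2l11, Slpi, Jun, Pon3, Ly6a and Egr1. Only 7, 15 and 4 cells were not IgA, so single cells weigh heavily.

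Ccr10 was found mostly in IgA cells, with 64 against 1 in WT, 71 against 4 in Y665H and 40 against 0 in Y665F (UMIs in IgA cells against UMIs in the others). The ratio of levels was 7.91 in Y665H and, against a floor of 3 UMIs, 6.61 in Y665F. Runx2, a transcription factor best known from bone, had UMI counts of 38 against 3 in WT, 40 against 0 in Y665H and 32 against 0 in Y665F. Jun, an AP-1 factor of the immediate early response, was lower in IgA cells, at ratios of 0.167 in WT, 0.230 in Y665H and 0.263 in Y665F, and Egr1, another immediate early gene, at 0.0662 in WT, 0.495 in Y665H and 0.186 in Y665F. Itgb7 was higher in IgA cells too, with UMI counts of 95 against 5 in WT, 128 against 41 in Y665H and 46 against 0 in Y665F. Its ratios were 5.93 in WT, 1.39 in Y665H and, against the same floor, 7.6 in Y665F, so that Y665H was under 2-fold. Tnfrsf17 had ratios of 2.07 in WT, 1.96 in Y665H and 4.08 in Y665F, and Bcl2l11, the death inducer BIM, of 0.369 in WT, 0.28 in Y665H and 0.165 in Y665F.

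A few cells carried most of the cell cycle transcripts. Summed over 20 cell cycle genes, the median cell held 3.5 UMIs in WT, 4 in Y665H and 7.5 in Y665F, with ranges of 0 to 321, 0 to 376 and 0 to 517. With 80 or more such UMIs taken as cycling, a limit set after the values were seen, 1 WT cell (321, IgM), 1 Y665H cell (376, IgA) and 3 Y665F cells (517 in an IgG1 cell, 330 and 89 in IgA cells) qualified, and the next highest cell held 36. The shares were 1 of 30 (3.33%, 0.0844 to 17.2%), 1 of 48 (2.08%, 0.0527 to 11.1%) and 3 of 18 (16.7%, 3.58 to 41.4%), with intervals that overlapped. The Y665F cell with 517 was also the deepest of the 96 plasma cells, at 57925 UMIs and 7.39% immunoglobulin. It held 19.2% of the Y665F non-immunoglobulin UMIs, by which levels are scaled.

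The summed level of the list was 1295 in WT, 1247 in Y665H and 3799.9 in Y665F, or 3.43, 3.09 and 8.38 times the B cell gate. Of 11 genes compared in Y665F 9 were 2-fold higher and 0 lower, with a median of 1.43. Of 7 in Y665H 0 were past 2-fold, with a median of 0.19. Among all genes compared 5.69% were higher and 5.51% lower in Y665F, and 1.97% and 1.81% in Y665H. Birc5, Cdk1, Ube2c, Cdc20 and Cenpf had 9, 12, 9, 2 and 2 UMIs in WT against 42, 24, 71, 29 and 33 in Y665F. They reached the UMI minimum only through Y665F, where 38, 23, 68, 27 and 31 of these UMIs lay in cycling cells. The count of 9 and the median were therefore set in part by that minimum. Mki67, the mark of cycling cells, was at 334 in WT, 306 in Y665H and 819 in Y665F. Without the 5 cycling cells it was at 199, 213 and 302, and the Y665F ratio went from 2.45 (1.95 to 3.10) to 1.52 (1.04 to 2.21). For Hmgb2, a chromatin protein of dividing cells, it went from 3.48 (2.74 to 4.46) to 1.12 (0.603 to 2.04), and in Y665H from 1.19 (0.924 to 1.55) to 1.85 (1.21 to 2.89). The summed level of the list without those cells was 394 in WT, 603 in Y665H and 667 in Y665F, with ratios to WT of 1.69 (1.31 to 2.19) in Y665F and 1.53 (1.24 to 1.90) in Y665H, so both mutants then stood above WT by under 2-fold. Without those cells 63 genes in place of 161 were 2-fold higher in Y665F and 150 in place of 156 lower. The UMI minimum was applied again to the cells left, so fewer genes could be compared and the counts are not over the same genes.

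**Figure D3:**
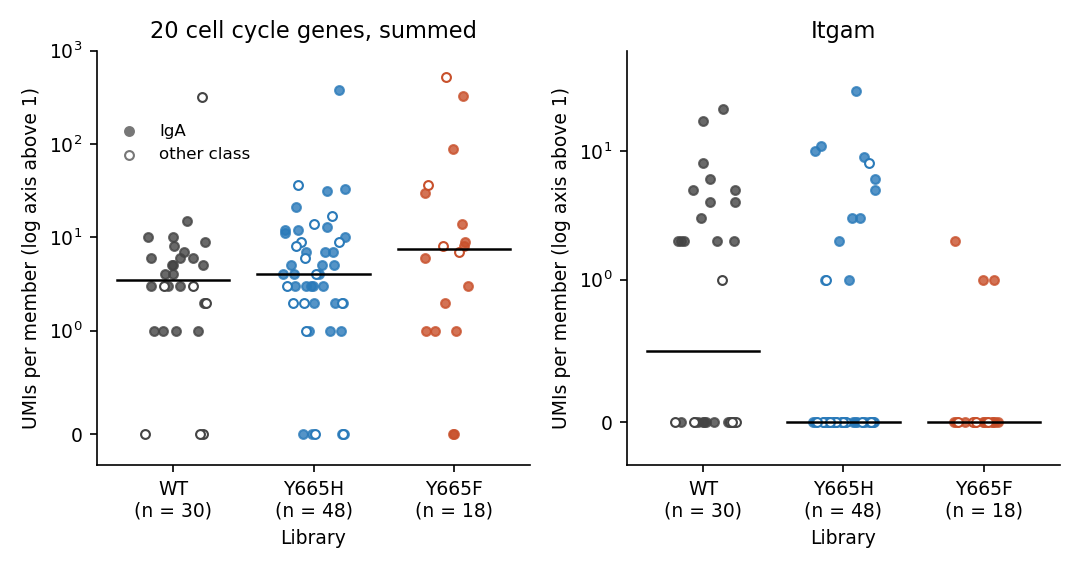
UMIs per member, which is 1 plasma cell (vertical axis, linear below 1 and logarithmic above) of 20 cell cycle genes summed (left) and of Itgam (right), with 1 point per cell, filled for IgA and open for another class, and the median as a black line. In all, 5 cells stand apart on the left, 3 of them in Y665F, and on the right 15 of 30 WT, 13 of 48 Y665H and 3 of 18 Y665F cells lie above 0. Of the 14, 10 and 1 cells with 2 or more Itgam UMIs, 14, 9 and 1 are IgA.

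The genes that stood farthest above WT in Y665F were in part those of the cycling cells. Cenpf, a kinetochore protein, had 2 and 33 UMIs in WT and Y665F, a ratio of 20.3 (5.20 to 175), and 31 of the 33 lay in the 3 cycling cells. Cdc20 and Ube2c, which serve the anaphase-promoting complex, had ratios of 17.9 (4.52 to 155) and 9.72 (4.84 to 22.1). Birc5 (survivin), Cks2 and the centromere gene Cenpw had ratios of 5.75 (2.76 to 13.4), 6.02 (2.90 to 14.0) and 9.55 (3.38 to 37.2). Ran, the GTPase of nuclear transport, had 35 and 165 UMIs, with 98 of the 165 in 1 cell. Its ratio of 5.81 (4.01 to 8.62) was 3.29 (1.97 to 5.62) without cycling cells. Fabp5, a fatty acid binding protein, had 4 and 37 UMIs, 32 of them in the same cell.

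The genes farthest below WT in Y665F included several that were found across many WT cells. Itgam (ENSMUSG00000030786, chr7, 128062640 to 128118491, plus strand), the integrin chain CD11b, had 84 UMIs in WT, 89 in Y665H and 4 in Y665F, in 15 WT, 13 Y665H and 3 Y665F cells, and ratios of 0.0587 (0.0156 to 0.156) in Y665F and 0.646 (0.474 to 0.881) in Y665H. After thinning 46.7% of WT, 28.3% of Y665H and 11.1% of Y665F cells held an Itgam UMI, against 1.02%, 2.60% and 1.67% of the T cell gate. The WT cells with at least 2 UMIs were all IgA (14), as was the 1 Y665F cell, and in Y665H 9 of 10 were. Without cycling cells the Y665F ratio was 0.0600 (0.0121 to 0.181), and among IgA cells only it was 0.0677.

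Ahnak and Anxa2, a membrane scaffold and an annexin that bind each other, were both low. Ahnak had 123 and 10 UMIs in WT and Y665F, in 22 and 6 cells, and a ratio of 0.10 (0.0469 to 0.191). Anxa2 had 124 and 20 UMIs, in 16 and 7 cells, and a ratio of 0.199 (0.117 to 0.320). In Y665H their ratios were 0.957 (0.759 to 1.21) and 1.09 (0.868 to 1.37). Both were also among the genes higher in IgA cells, and the Y665F ratios among IgA cells only were 0.113 and 0.232. S100a6, a calcium-binding protein, had 54 and 6 UMIs, with 28 of the WT UMIs in 1 cell.

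Atp1b1, a subunit of the sodium pump, was at 621 in WT, 423 in Y665H and 161 in Y665F, with ratios of 0.259 (0.184 to 0.359) in Y665F and 0.681 (0.564 to 0.823) in Y665H. Dnm3, a dynamin of membrane fission, was at 244 in WT, 204 in Y665H and 32.2 in Y665F, in 24 WT, 35 Y665H and 5 Y665F cells, with a Y665F ratio of 0.132 (0.0583 to 0.263). Prg2, eosinophil major basic protein, which plasma cells can also express, had 47 UMIs in WT, 27 in Y665H and 2 in Y665F, in 7 WT, 13 Y665H and 2 Y665F cells, and ratios of 0.0524 (0.00617 to 0.20) in Y665F and 0.35 (0.210 to 0.574) in Y665H. Tcp11l2 had 35 and 4 UMIs in WT and Y665F and Ifitm1, an interferon-induced membrane protein, 42 and 3. Of the 42 in WT, 24 and 15 lay in 2 cells, and Ifitm1 was found in 3 WT and 3 Y665F cells. Without the cycling cells the ratios were 0.320 for Atp1b1, 0.187 for Dnm3, 0.109 for Ahnak and 0.182 for Anxa2, all still past 2-fold.

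A single WT plasma cell set several values. It held all 36 Siglech UMIs of the plasma cells, a gene of plasmacytoid dendritic cells, with 4938 genes, 26 of the 44 WT UMIs of Irf8, 14 of the 31 of Ccr9, 54 Bst2 UMIs and 224 MHC class II UMIs, beside 652 Jchain UMIs and a clear IgA class. It also held 45 of the 49 WT UMIs of Tyrobp, a signalling adaptor of myeloid and NK cells. The Tyrobp ratio in Y665H was 0.423 (0.265 to 0.669) with this cell and 4.85 without it, and in Y665F the 1 UMI gave 0.0251 (0.000624 to 0.147) with it. Without the top cell of each library Y665F had no Tyrobp UMI left, and the floor of 3 UMIs allows a ratio of up to 0.901. A doublet score against simulated doublets would have removed this cell, 2 Y665H cells and no Y665F cell.

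**Figure D4:**
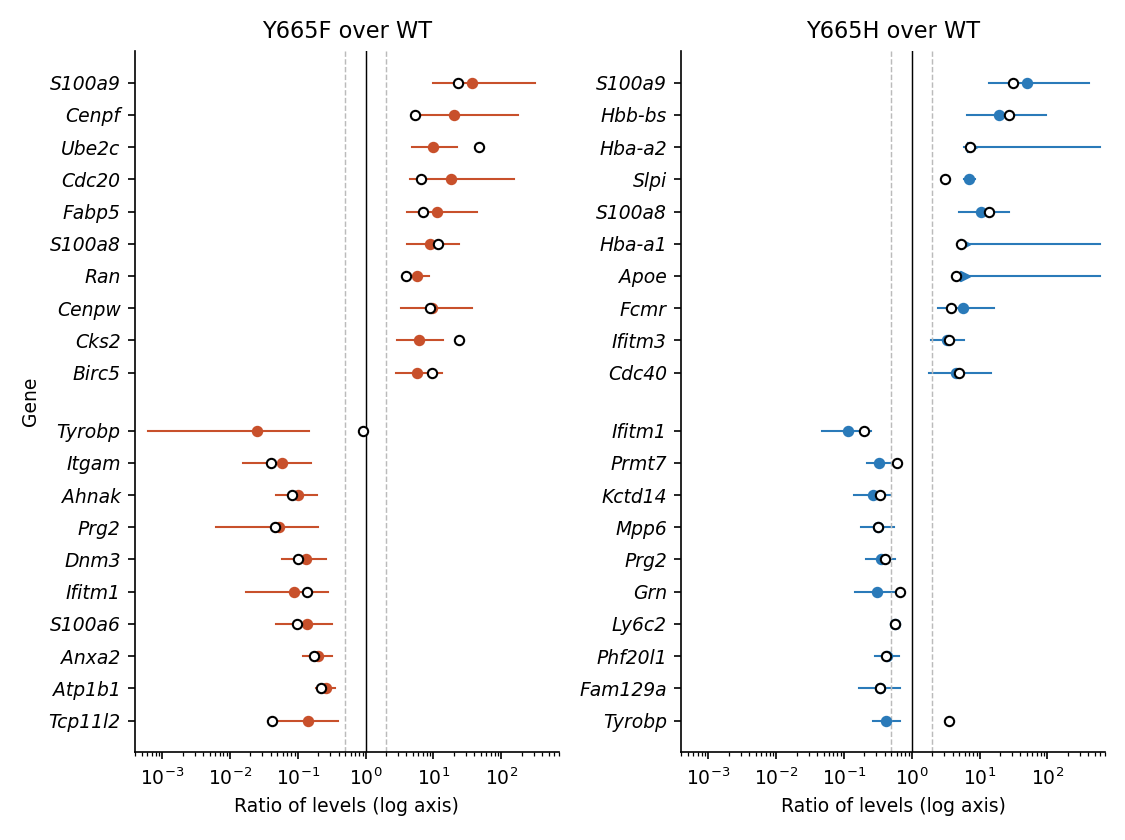
Ratio of levels in mutant over WT plasma cells (log axis) for the 10 higher and 10 lower genes of each comparison, with 95% exact counting intervals, which cover counting error only. Open black circles leave out, for each gene, the cell with most of its UMIs in each library. Circles of genes with no UMI left in a library stand at the floor of 3 UMIs and are bounds. Triangles are ratios against that floor where WT had 0 UMIs, and their open-ended intervals are drawn to the right edge. Dashed lines mark 2-fold. Tyrobp crosses from below to above 1 in Y665H when the top cell of each library is left out, at 0.423 and 3.53, and Itgam, Ahnak, Anxa2 and Atp1b1 stay below the lower dashed line in Y665F.

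Among the genes farthest above WT in Y665H was Slpi, a secreted inhibitor of neutrophil proteases. It had 128 UMIs in WT, 1488 in Y665H and 256 in Y665F, in 14 WT, 26 Y665H and 10 Y665F cells, and ratios of 7.09 (5.91 to 8.56) in Y665H and 2.46 (1.99 to 3.07) in Y665F. A single IgG2c cell held 986 of the 1488, and the Y665H ratio was 3.06 without the top cell of each library and 0.930 among IgA cells only. The level of Slpi in WT, Y665H and Y665F was also higher in both mutants in the other gates, at 4.89, 28.9 and 11.4 in the B cell gate and 5.53, 24.7 and 12.7 in the T cell gate. Fcmr, a receptor for IgM and a B cell gene, had 6 UMIs in WT, 56 in Y665H and 1 in Y665F, 31 of the 56 in 1 IgM cell, and a ratio of 5.69 (2.46 to 16.2). Ifitm3, an antiviral membrane protein, had 17 UMIs in WT, 91 in Y665H and 35 in Y665F and ratios of 3.26 (1.93 to 5.85) in Y665H and 2.54 (1.38 to 4.83) in Y665F. Its level differed in the same order of libraries outside plasma cells, at 10.4, 27.8 and 17.8 in the B cell gate and 4.43, 26.9 and 15.3 in the T cell gate, and the part of such transcripts in the plasma cell values of both genes was not tested. Cdc40, a splicing factor, had 5 UMIs in WT, 37 in Y665H and 17 in Y665F and a Y665H ratio of 4.51 (1.77 to 14.7). Apoe, a lipid carrier of macrophages, had 0 UMIs in WT and Y665F and 30 in 10 Y665H cells. Its level was 6.10-fold higher in Y665H against a floor of 3 UMIs (exact lower bound 4.66). It reached the minimum of 30 UMIs only through Y665H. In the B cell gate Apoe was at 238 in WT, 287 in Y665H and 218 in Y665F.

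Lower in Y665H than in WT were Ifitm1 at 0.116 (0.0471 to 0.25), Kctd14 at 0.266 (0.141 to 0.481) and the scaffold gene Mpp6 at 0.312 (0.175 to 0.541). Prmt7, an arginine methyltransferase, was at 0.324 (0.217 to 0.477), with 48 of its 79 WT UMIs in 1 cell, and at 0.611 without the top cell of each library. Grn, a lysosomal growth factor, was at 0.305 (0.144 to 0.615) with them and 0.661 without them. Lower too were the chromatin reader Phf20l1 at 0.430 (0.284 to 0.645) and the stress gene Fam129a at 0.339 (0.167 to 0.660). Of these, Kctd14, Prmt7, Phf20l1 and Fam129a were past 2-fold lower in Y665F too, at 0.442, 0.374, 0.404 and 0.274, against the same WT library. For Prmt7 this too was lost without the top cells, at levels of 93.4 in WT and 67.1 in Y665F. The summed level of Ifitm1 was lower in both mutants, but 24 and 15 of its 42 WT UMIs lay in 2 cells. It was found in 3 WT (10.0%), 7 Y665H (14.6%) and 3 Y665F (16.7%) cells. In the other gates Ifitm1 was higher in both mutants than in WT, at 4.27, 39.7 and 19.4 in the B cell gate and 2.08, 31.6 and 8.21 in the T cell gate. Ly6c2, a surface antigen of plasma cells with a close copy in Ly6c1, was at 1440.5 in WT, 807 in Y665H and 930.3 in Y665F, with ratios of 0.561 (0.493 to 0.638) in Y665H and 0.646 (0.554 to 0.752) in Y665F, both under 2-fold. Its single cells ranged from 0 to 118, 0 to 102 and 0 to 135 UMIs. The highest Y665F cell held 135 of 260, and without the top cell of each library the Y665F ratio was 0.416, past 2-fold. Without cycling cells, by contrast, the Y665F ratio was 0.863 (0.739 to 1.01). The Y665H ratio was 10.9 when IgM cells only were used.

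The edited gene and several genes of its pathway were sparse in plasma cells. The pathway list of 29 genes had a summed level of 2265 in WT, 1973 in Y665H and 1853 in Y665F. That was 0.801, 0.686 and 0.690 times the B cell gate. Stat5b had 8 UMIs in WT, 22 in Y665H and 12 in Y665F and Stat5a 3 UMIs in WT, 5 in Y665H and 1 in Y665F. After thinning 10.0% of WT, 28.3% of Y665H and 27.8% of Y665F cells held a Stat5b UMI, against 37.1%, 38.0% and 31.6% of the T cell gate. The Y665H ratio of Stat5b was 1.68 (0.719 to 4.36), or 2.03 without the top cell of each library (20 UMIs against 6), and in Y665F it had under 30 UMIs in the 2 libraries. Cish, a feedback gene of STAT5, had 2 UMIs in WT, 2 in Y665H and 1 in Y665F, and Il2ra 0 in all 3. Socs2, another feedback gene, had 10 UMIs in WT, 28 in Y665H and 14 in Y665F, and its level of 29.0 in WT, 49.6 in Y665H and 50.1 in Y665F was above the B cell gate at 1.68, 2.67 and 2.23. Its Y665H ratio was 1.71 (0.805 to 3.94). The edited base itself was not read.

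Of 29 genes of the pathway 9 could be compared in Y665F, with 1 higher (Ccnd2) and 2 lower (Jak1 and Irf8), and 13 in Y665H, with 0 higher and 1 lower (Irf8). The medians were −0.61 and −0.28. As a share of all genes compared, 5.69% were higher and 5.51% lower in Y665F, and 1.97% and 1.81% in Y665H. Nothing particular to the pathway is read from counts this small. Irf8, a factor of dendritic and B cells, had 26 of its 44 WT UMIs in the WT cell that held the Siglech UMIs. Without that cell its ratio was 1.11 in Y665H, above 1, and 0.641 in Y665F, where under 30 UMIs were left, so both calls were lost. Without the top cell of every library it was 0.989 in Y665H and 0.411 in Y665F. Ccnd2, a D-type cyclin, was at 186 in WT, 142 in Y665H and 458 in Y665F and was found in 21 WT, 30 Y665H and 16 Y665F cells, with a median of 2, 1 and 3 UMIs and a highest cell of 8, 12 and 55. Its Y665F ratio was 2.46 (1.81 to 3.38), and 1.83 (1.25 to 2.66) without cycling cells or 1.90 without the top cell of each library. Jak1, the kinase of gamma chain receptors, had 37 UMIs in WT, 62 in Y665H and 15 in Y665F, a Y665F ratio of 0.499 (0.255 to 0.932) and 0.504 (0.210 to 1.09) without cycling cells, just under 2-fold. Pim1, a kinase gene that STAT5 activates, was at 691 in WT, 613 in Y665H and 462 in Y665F, with ratios of 0.668 (0.535 to 0.831) in Y665F and 0.886 (0.749 to 1.05) in Y665H.

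Interferon-induced genes lay on both sides of the B cell gate. Of 15, 16 and 12 genes compared, 5, 4 and 5 were 2-fold above it and 5, 6 and 5 2-fold below. Over all genes 12.1%, 11.0% and 14.4% stood 2-fold above and 29.1%, 29.1% and 29.3% 2-fold below. The summed level of the list was 3.59, 2.62 and 2.53 times the gate, with most of it from Ifi27l2a, at 1579.9 in WT, 1139 in Y665H and 1678 in Y665F, against 417, 434 and 679. Of the 4 that could be compared in each mutant 0 were higher, and 1 was lower in Y665F and 0 in Y665H, with medians of 0.067 and −0.44. The share lower in Y665F over all genes compared was 5.51%, and a count of 1 is not read as a result for the list. The lower gene was Isg15, a ubiquitin-like protein, at 232 in WT, 135 in Y665H and 93.0 in Y665F, and 1 IgA cell held 77.5%, 57.9% and 57.7% of its UMIs. Without the top cell of each library its ratio was 0.749 in Y665F, under 2-fold, and 1.07 in Y665H, where it had been 0.579. Bst2 (tetherin), which plasma cells express, was at 494 in WT, 372 in Y665H and 598 in Y665F, and its Y665H ratio was 0.753, or 1.03 without the WT cell that held the Siglech UMIs. Ifit1 and Ifit2 were at 0 UMIs in all 3.

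Transcripts of neutrophils and red cells differed between the libraries in plasma cells and in the other gates. The 8 neutrophil genes had a summed level of 46.5 in WT, 630.4 in Y665H and 569 in Y665F in plasma cells, 82.6, 1373 and 821 in the B cell gate and 84.4, 1987 and 3132 in the T cell gate. S100a9, a calcium-binding protein of neutrophils, was found in 1 WT, 45 Y665H and 18 Y665F cells, with ratios of 37.6 (9.97 to 317) in Y665F and 49.7 (13.5 to 414) in Y665H, and S100a8, its partner, at 8.98 (4.06 to 23.4) and 10.6 (5.0 to 27.0). Both genes were past 2-fold in each mutant, and the other 6 had too few UMIs. Among the defining markers Mmp8 was at 0, 1 and 0 UMIs.

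The 6 red cell genes were at 14.5 in WT, 328 in Y665H and 0 in Y665F in plasma cells, 17.3, 1935 and 9.86 in the B cell gate and 10.8, 736 and 2.37 in the T cell gate. In Y665H 3 of 3 were past 2-fold, with Hbb-bs at 19.5 (6.48 to 96.3) in 42 of 48 cells. Hba-a2 and Hba-a1, which are near-identical copies, were at 7.72 and 6.10 against a WT floor of 3 UMIs (exact lower bounds 5.98 and 4.66). These genes had 3, 0 and 0 UMIs in WT against 96, 38 and 30 in Y665H. They reached the minimum of 30 UMIs only through Y665H, so the count of 3 of 3 was fixed by it. The share higher in Y665H over all genes compared was 1.97%. The 8 monocyte and macrophage genes were at 8.71 in WT, 63.7 in Y665H and 32.2 in Y665F, with Lyz2 past 2-fold in Y665H and C1qa and C1qc at 0 in all libraries. All 8 together had 3 UMIs in WT, so Lyz2 too reached the minimum only through Y665H. The part of such transcripts in the other results was not tested.

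The 10 T cell genes were at 134 in WT, 177 in Y665H and 93.0 in Y665F, against 6187, 6139 and 5383 in the T cell gate, with 1 gene past 2-fold higher in Y665H (Trbc2, a ratio of 2.03 (0.941 to 4.87), and 1.87 without the top cell of each library). No plasma cell held more than 7 UMIs of them. The Cd3 genes of this list were limited in plasma cells and required in the T cell gate, so the contrast was set in part by the rules. The 7 NK cell genes were at 128 in WT, 93.8 in Y665H and 118 in Y665F with none past 2-fold of 1 and 2 compared, and Ncr1 was at 0 in all. The 7 dendritic cell genes were at 703 in WT, 423 in Y665H and 633 in Y665F, of which Bst2 made up most, and in each mutant 2 of 3 compared (Siglech and Ccr9) were lower, which was lost for both genes without the 1 WT cell described above, and for Siglech but not Ccr9 without the top cell of every library. B cell genes with enough UMIs were few, with 2 of 3 lower in Y665F (Cd55 and Vpreb3) at a median of −1.34 and 1 of 6 higher in Y665H (Fcmr) at 0.19, and of the MHC class II genes 0 of 4 and 1 of 6 (H2-Ob, 2.01 (0.969 to 4.58), and 1.87 without the top cells) were past 2-fold, at −0.21 and 0.25. Without the WT cell that held the Siglech UMIs H2-Ob was at 1.88 in Y665H and no longer past 2-fold, while H2-Aa, at 2.46, was. The median of the 2 neutrophil genes, which met the minimum only through the mutants, was 4.20 and 4.52. For all these lists, the shares over all genes compared were 5.69% higher and 5.51% lower in Y665F. In Y665H they were 1.97% and 1.81%, and counts this small are not read as results for a list.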

How the data were processed

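Spleen cells were profiled by droplet single-cell RNA sequencing. The deposited files hold UMI counts per gene and barcode, made by the authors in Cell Ranger on the mouse genome GRCm38/mm10 (5.0 and Seurat 4.0 by the submitters' processing notes, 6.0.0 by the headers of the deposited files). The kit is 3′ by the labels and 5′ by the methods. No column of the deposited counts was left unused in the spleen libraries (0). No barcode was removed as a doublet, except where an alternative says so. Plasma cells, gene lists and limits were chosen with earlier results of these data known. The B cell gate took barcodes with at least 2 Cd79a and 1 Ms4a1 UMIs, under 10 Jchain and at most 1 Cd3 UMI, and the T cell gate at least 3 Cd3 UMIs, no Cd79a and under 10 Jchain, all within the limits on genes and mitochondrial UMIs. UMIs were summed over plasma cells and scaled per 1000000 non-immunoglobulin UMIs. Ratios carry 95% exact conditional Poisson intervals and shares Clopper-Pearson intervals. With 1 library per genotype no test was run. Between genotypes a gene needed 30 UMIs in the 2 libraries together, and a count of 0 in a library was set to a floor of 3 UMIs summed over the plasma cells of the library. Genes named were those of the fixed lists by role. For each comparison they were also the 10 higher and 10 lower genes outside immunoglobulin, mitochondrial and Y-linked genes and Xist, with a UMI in at least 10% of the plasma cells of the higher library, whose interval bound nearest 1 lay farthest from 1. The 3 most frequent V segments per library were named too. Values of 1 list gene are not reported here. The cycling limit of 80 UMIs, the IgA comparison and single genes of 1 cell were chosen after values were seen. Gene coordinates came from an annotation that matched 32158 of 32285 genes (99.6%), and promoters from RefSeq. Alternatives covered the limits of the rule, doublet removal, thinning, scaling (TMM of edgeR 4.0.16, median of ratios of DESeq2 1.42.0), UMI minimum, single cells and antibody class. Scripts used R 4.3.3, Python 3.11.15, matplotlib 3.10.9, scikit-learn 1.9.0, scipy 1.17.1, pandas 2.3.3 and numpy 2.4.6, and were tested on simulated data.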

Additional observations from a re-analysis of the deposited data

How the results depend on the processing

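No library could be left out, since each genotype had 1. No paired analysis was possible because the result comes from no test and each genotype has 1 library. The share of plasma cells was 0.343% in Y665H and 0.182% in Y665F with no Cd3 UMI allowed. It was 1.01% in Y665H with barcodes thinned to 5000 UMIs, and it stayed within its interval under the other limits. Thinning left out barcodes under 5000 UMIs, and the median Y665H barcode held 5046 UMIs, so that share has another denominator. IgA and IgM shares stayed within their intervals under every alternative that gave a value. Leaving out cells with 2 or more UMIs of other lineages left 4 WT cells and 0 mutant cells, so it gave no value for the mutants. The count of genes past 2-fold in Y665F was 290 higher and 86 lower per 1000000 of all UMIs, 906 and 1155 with no minimum, 40 and 28 at 100 UMIs, 49 and 46 among IgM cells only, and 25 and 23 where the whole interval had to pass 2-fold. The higher count alone was 63 without cycling cells and 67 among IgA cells only. Of those 63 and 67 genes, 40 and 45 were among the 161. In Y665H it was 797 higher and 847 lower with no minimum, 8 and 2 at 100 UMIs, and 8 and 6 by the interval, and the higher count alone was 127 without the top cell of each gene and 31 among IgM cells only. With another minimum or a subset of cells, another number of genes could be compared, so those counts are not over the same genes. IgM cells were only 4 in WT, 6 in Y665H and 2 in Y665F. TMM and median of ratios moved the scale by at most 0.031 (log2). Among the 10 higher and 10 lower genes of each comparison, the direction turned for Slpi in Y665H among IgA cells only (0.930), for Ly6c2 in Y665H among IgM cells only (10.9), and for Tyrobp in Y665H without the top cell of each library (3.53) or without the WT cell that held the Siglech UMIs (4.85). Without that cell Irf8 turned too in Y665H (1.11), and the calls of Ccr9 and Siglech in both mutants and of Irf8 in Y665F were lost. Of the list genes compared (138 in Y665F and 157 in Y665H), 7 and 11 crossed a ratio of 1 without that cell, among them H2-Aa in Y665F (1.51) and Bst2 in Y665H (1.03), and 13 and 13 without the top cell of each library, among them Isg15 in Y665H (1.07). Of 24 and 15 list genes past 2-fold, 4 and 7 were lost without that cell, where 0 and 2 others (H2-Aa and Pclaf) came to be past it, and 3 and 4 were lost without the top cells, where 4 and 4 others came to be past it. Of the values under an alternative for the 10 higher and 10 lower genes of each comparison, 335 kept their direction and lay within the counting interval, 15 kept their direction outside it and 4 turned. The alternatives without cycling cells, with IgA cells only, without the Siglech cell and without cells under 50 heavy chain UMIs were chosen after seeing the data. The 18 Y665F cells limit what counts can show.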

Other observations

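The same rule was applied to the other tissues of the series. In lymph node it found 4 and 3 plasma cells in the WT libraries, 0, 0 and 4 in the heterozygous Y665F libraries and 0 and 5 in the homozygous ones. In bone marrow it found 3 in 1 Y665H library and 0 in the other 5 libraries. Passing barcodes ranged from 234 to 18711 per library, and the median UMIs per barcode of these libraries were between 368 and 3116, below those of the spleen. The lymph node library with 4 cells among 234 passing barcodes had a median of 368 UMIs per barcode. A plasma cell with a kappa chain held a median of 70.5 (WT), 60.5 (Y665H) and 74 (Y665F) UMIs of Iglc1, Iglc2 and Iglc3, and up to 562 in WT, while Igkc in the 3 lambda cells was at 6, 28 and 153. Iglc2 and Iglc3 are near-identical copies, and how reads were split between them was not tested. The 2 Y665H cells with 22 and 33 heavy chain constant UMIs had no Ighv UMI.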
